A study of Mus musculus with 27 samples.

Results

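Adult hematopoietic progenitor cells (HPC) were compared for 2 histone H3 marks, H3K4me1 and H3K27me3, gene by gene. The members were all 20665 autosomal protein-coding genes of the mouse (build GRCm38, mm10), each taken as the gene body plus 5 kb on either side. A gene was placed in 1 of 4 classes by whether at least 1 called peak of each mark touched that window. H3K4me1 peaks alone were found at 13160 genes, peaks of both marks at 3283, H3K27me3 peaks alone at 907 and no peak of either mark at 3315. Both peak lists rest on 6 of the 27 libraries of the series, 3 per mark.

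H3K4me1 is laid down by the MLL3 and MLL4 methyltransferases and is known from enhancers and from the flanks of promoters, whether the gene is active or only poised. H3K27me3 is written by Polycomb repressive complex 2 and covers developmental genes and other silent genes of the lineage. Domains with Polycomb marks at the start of a gene that also carries H3K4 methylation are often called poised or bivalent, and in blood progenitors many regulators of other tissues are kept in such a state.

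The adult HPC were sorted from mice of the B6 background at 8 weeks of age, and the sorting gate is not given in the labels. The fetal HPC used for comparison came from E16.5 embryos on the same background, and adult and fetal hematopoietic stem cells (HSC) gave further H3K4me1 lists. The assay was ChIPmentation, in which the Tn5 transposase tags chromatin held by the antibody. The 3 adult libraries of the H3K27me3 set, and the 2 fetal HPC libraries of the same kind, carry that mark in their titles but H3K27ac in their mark field. Of the 54293 peaks of the adult set, 16 (0.0295%) overlapped a peak of the separate adult HPC H3K27ac list, whereas 48144 of the 126502 H3K4me1 peaks (38.1%) did. Both sets are called H3K27me3 below, after their titles. Each mark was given as 1 peak list pooled by the authors, so no spread between animals or libraries could be had, no test was possible, and all intervals are 95% Wilson intervals that cover counting error only. A gene without a called peak may still carry the mark below the calling limit.

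The lists differed in strength as well as in number. H3K4me1 peaks had a median width of 864 bp and a median −log10 q of 11.30, against 402 bp and 1.38 for H3K27me3 peaks. A −log10 q of 3 or more was reached by 123069 H3K4me1 peaks and by 2767 H3K27me3 peaks, so most H3K27me3 calls were weak ones. As a check of the label, 10 of 10 progenitor markers (among them Kit with 20 H3K4me1 peaks, Flt3 with 20, Myb with 16 and Runx1 with 61) carried H3K4me1 alone, as did 63.7% of all genes. This class is not specific to progenitors, since 37 of 37 housekeeping genes and 11 of 14 B cell markers were in it too. Markers of neurons had 0 of 13 in the H3K4me1-only class, 11 with both marks and 2 with H3K27me3 alone. Markers of other cells were less set apart. H3K4me1 alone was at 10 of 15 endothelium, 8 of 15 stroma and 6 of 20 hepatocyte markers. It was at 7 of 13 macrophage markers and 9 of 20 T and NK cell markers.

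Promoter sequences of 5 genes are shown here because they span the classes and the range of CpG content found in them. They are the first 250 bases of the RefSeq promoter window (GRCm38.p6), which end just before the start that RefSeq gives the promoter, written 5′ to 3′ on the strand of the gene, with each CG dinucleotide in capitals. A RefSeq promoter was matched to 16457 of the 20665 genes (79.6%). Gata2 (H3K4me1 only, chr6:88193641-88193890, plus strand) encodes a transcription factor needed by blood stem cells. Lhx2 (both marks, chr2:38339031-38339280, plus strand) encodes a LIM-homeodomain regulator of forebrain and hair follicle, and the last 10 bases of its sequence lie inside the annotated gene, from whose start distances are measured below. Slc6a11 (H3K27me3 only, chr6:114130991-114131240, plus strand) encodes a GABA transporter of the brain. Krt73 (H3K27me3 only, chr15:101802361-101802610, minus strand) encodes a hair follicle keratin, and Olfr1000 (neither mark, chr2:85608909-85609158, minus strand) an olfactory receptor.
Gata2: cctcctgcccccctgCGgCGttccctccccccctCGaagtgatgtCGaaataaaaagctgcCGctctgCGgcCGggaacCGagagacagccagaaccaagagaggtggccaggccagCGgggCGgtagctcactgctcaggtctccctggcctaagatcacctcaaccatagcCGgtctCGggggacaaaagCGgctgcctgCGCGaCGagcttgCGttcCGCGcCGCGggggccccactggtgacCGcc
Lhx2: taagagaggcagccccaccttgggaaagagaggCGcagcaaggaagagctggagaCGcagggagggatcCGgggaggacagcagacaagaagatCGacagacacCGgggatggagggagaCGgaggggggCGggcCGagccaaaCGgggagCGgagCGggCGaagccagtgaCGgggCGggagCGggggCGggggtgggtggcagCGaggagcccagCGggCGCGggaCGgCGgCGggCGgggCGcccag
Slc6a11: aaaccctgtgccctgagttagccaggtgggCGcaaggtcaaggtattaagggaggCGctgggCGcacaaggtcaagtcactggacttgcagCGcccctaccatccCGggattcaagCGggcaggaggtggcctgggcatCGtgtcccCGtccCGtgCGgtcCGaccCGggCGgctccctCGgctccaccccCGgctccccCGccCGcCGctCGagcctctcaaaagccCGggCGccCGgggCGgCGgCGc
Krt73: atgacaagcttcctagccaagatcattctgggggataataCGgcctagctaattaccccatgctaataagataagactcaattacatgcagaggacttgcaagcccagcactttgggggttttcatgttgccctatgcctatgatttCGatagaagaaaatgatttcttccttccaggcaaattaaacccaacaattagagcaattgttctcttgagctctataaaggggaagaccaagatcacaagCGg
Olfr1000: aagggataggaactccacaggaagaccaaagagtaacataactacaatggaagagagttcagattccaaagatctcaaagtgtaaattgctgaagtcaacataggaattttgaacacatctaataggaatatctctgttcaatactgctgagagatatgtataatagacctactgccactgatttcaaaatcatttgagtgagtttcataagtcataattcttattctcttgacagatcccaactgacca

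The 250 bases held 22 CG dinucleotides in Gata2, 25 in Lhx2, 25 in Slc6a11, 3 in Krt73 and 0 in Olfr1000. Gata2 had 6 H3K4me1 peaks and 0 H3K27me3 peaks, and 1 of the H3K4me1 peaks covered the gene start. Lhx2 had 11 H3K4me1 and 22 H3K27me3 peaks. An H3K4me1 peak (fold over background 4.47 as the authors gave it) covered the Lhx2 start, and the nearest H3K27me3 peak (fold 2.95) began 776 bp away. Slc6a11 had 0 H3K4me1 and 41 H3K27me3 peaks, the nearest 698 bp from its start. Krt73 had 0 and 9, the nearest 998 bp away, and Olfr1000 had none of either.

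H3K4me1 peaks alone marked 63.7% of the genes (interval 63.0% to 64.3%), both marks 15.9%, H3K27me3 alone 4.39% and neither mark 16.0%. In all, 16443 genes (79.6%) had an H3K4me1 peak and 4190 (20.3%) an H3K27me3 peak. With genes of all window lengths pooled, H3K27me3 was nearly as frequent with H3K4me1 as without it. H3K27me3 was present at 3283 of the 16443 genes with H3K4me1 (interval 19.4% to 20.6%) and at 907 of the 4222 genes without it (21.5%, 20.3% to 22.7%). Of the genes with H3K27me3, 78.4% therefore also had H3K4me1. The near-equal shares did not hold at every window length. Among the 4133 genes with the longest windows, 1289 had both marks beside 2562 with H3K4me1 alone. In the same group, 144 had H3K27me3 alone beside 138 with neither, so H3K27me3 was more frequent without H3K4me1. Among the 4133 with the shortest windows the counts were 316 beside 1651, and 301 beside 1865.

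Peak numbers overlapped widely between the classes. Genes with H3K4me1 alone had a median of 5 H3K4me1 peaks (quartiles 3 and 7), and genes with both marks had 4 (2 and 6). Genes with both marks and genes with H3K27me3 alone each had a median of 3 H3K27me3 peaks. Relative to window length the medians were 14.9 H3K4me1 peaks per 100 kb where H3K4me1 stood alone and 7.39 per 100 kb where both marks were present. For H3K27me3 peaks they were 9.68 per 100 kb where that mark stood alone and 6.27 per 100 kb where both were present. Across all 20665 genes Spearman's rho between the 2 peak numbers was -0.08, and -0.19 per 100 kb. Both numbers share the window, whose length had a rho of 0.55 with H3K4me1 peaks and 0.17 with H3K27me3 peaks.

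Window length moved with class, and long genes were those most often called for both marks. Among the 4133 genes with the shortest windows (up to 14.4 kb) 39.9% had H3K4me1 alone, 7.65% both marks, 7.28% H3K27me3 alone and 45.1% neither. Among the 4133 with the longest windows (67.9 kb and above) 62.0% had H3K4me1 alone, 31.2% both, 3.48% H3K27me3 alone and 3.34% neither. The share with neither mark was lower in each longer group of the 5, while H3K27me3 alone was most frequent among the shortest genes. The part of length in the class of any gene list was not tested.

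**Figure D1:**
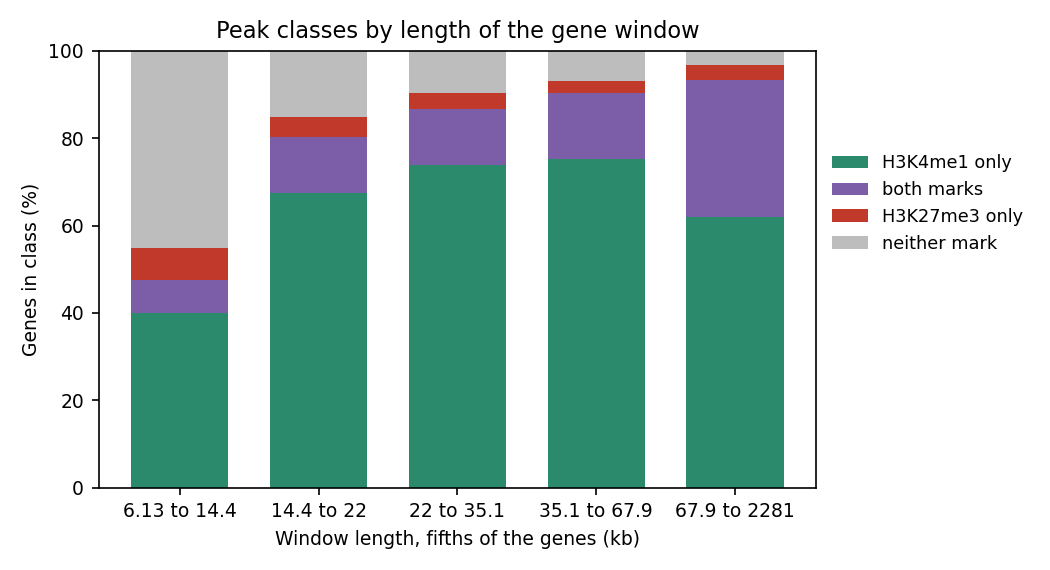
Share of the autosomal coding genes in each peak class (stacked, %) within 5 groups of window length (kb, 4133 genes each). The share with neither mark is 45.1% in the shortest group and 3.34% in the longest, and the share with both marks is 7.65% and 31.2%.

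Gene families were described as 73 lists. The families with both marks were above all the transcription factors that pattern the embryo. Of 165 homeobox, Pax, Pou and T-box genes in 6 of the lists, 19 (11.5%) had H3K4me1 alone, 144 (87.3%) had both marks, 0 had H3K27me3 alone and 2 had neither. Over all autosomal genes 15.9% had both marks. All 9 of 9 Pax genes and 44 of 45 LIM, Irx, Otx and related homeobox genes carried both. In the LIM and related list H3K27me3 was the more frequent mark, with a median of 8 peaks per gene against 4 of H3K4me1, in windows of a median of only 20.9 kb.

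Lmx1a, a regulator of midbrain dopamine neurons, had 5 H3K4me1 and 42 H3K27me3 peaks. Lmx1b, its paralog needed for limb dorsal identity and the kidney, had 10 and 22. Six5 was the 1 member of that list without H3K27me3 and had 2 H3K4me1 peaks. Among the Pax genes Pax2, of the kidney and midbrain, had 10 H3K4me1 and 43 H3K27me3 peaks, and Pax3, of neural crest and muscle precursors, had 7 and 43. Pax5, which commits lymphoid precursors to the B cell lineage, belonged to the same pattern with 5 and 31.

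The Nkx, Dlx, Msx and related homeobox genes had both marks at 39 of 42. Barx2 had 4 H3K4me1 and 26 H3K27me3 peaks, and Nkx2-2, a determinant of ventral spinal cord and pancreatic islet cells, had 7 and 13. The other 3, Nkx2-3, Gbx2 and Nkx6-3, had 6, 4 and 4 H3K4me1 peaks and none of H3K27me3. Nkx2-3 is known for its role in spleen and gut mesoderm. T-box genes followed with 12 of 16, led by Tbx5, a regulator of heart and forelimb, with 13 H3K4me1 and 33 H3K27me3 peaks. Of 5 autosomal Gata genes, Gata3, Gata4, Gata5 and Gata6 had both marks, Gata4 (heart and endoderm) with 12 and 37 peaks, whereas Gata2 had H3K4me1 alone.

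Further developmental families were less uniform. Both marks were found at 12 of 18 Sox genes, 24 of 41 forkhead genes and 34 of 53 tissue bHLH genes. Sox5 had 69 H3K4me1 peaks and 1 H3K27me3 peak, whereas Sox21, a neural gene, had 2 and 6. Forkhead genes included Foxo1, a factor of stem cell and lymphoid quiescence, with 13 and 1, and Foxd3, of neural crest, with 9 and 8. Among the bHLH genes Neurod1, of neurons and islets, had 2 and 10, and Twist2, of dermis, had 1 and 17. Neurod6 and Myod1, the muscle determination factor, had no H3K4me1 peak and 4 and 1 H3K27me3 peaks.

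The Hox genes divided by cluster and by position within it. Of 39 Hox genes, 9 had H3K4me1 alone and 30 had both marks, and every one of the 39 had at least 1 H3K4me1 peak. The following genes were picked out after their values were seen. In the Hoxa cluster Hoxa3, Hoxa4, Hoxa5, Hoxa6, Hoxa7 and Hoxa9 had 12, 3, 4, 3, 4 and 4 H3K4me1 peaks and no H3K27me3. H3K27me3 lay on either side of these genes, with 1 peak at Hoxa2, 3 at Hoxa10, 6 at Hoxa11 and 4 at Hoxa13. In the Hoxb cluster only Hoxb3, Hoxb4 and Hoxb5 were without H3K27me3, with 12, 4 and 2 H3K4me1 peaks. Hoxb4 is a gene long used to expand blood stem cells.

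All 9 Hoxc and all 9 Hoxd genes had both marks. H3K27me3 peaks per gene ran from 5 to 13 (median 9) in Hoxc and from 4 to 23 (median 8) in Hoxd, above H3K4me1 peaks, which ran from 2 to 7 and from 2 to 10 (median 3 in each). Hoxd3 had the most H3K27me3 peaks of any Hox gene, 23, beside 10 of H3K4me1. H3K27ac, a mark of active promoters and enhancers that the classes did not use, split the clusters the same way. It was called at 9 of 11 Hoxa genes, 5 of 10 Hoxb genes, and at 0 of 9 Hoxc and 0 of 9 Hoxd genes. In fetal HPC it was called at 6, 3, 0 and 0. Hox genes are so close that neighbouring windows share peaks, and they are not independent cases.

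**Figure D2:**
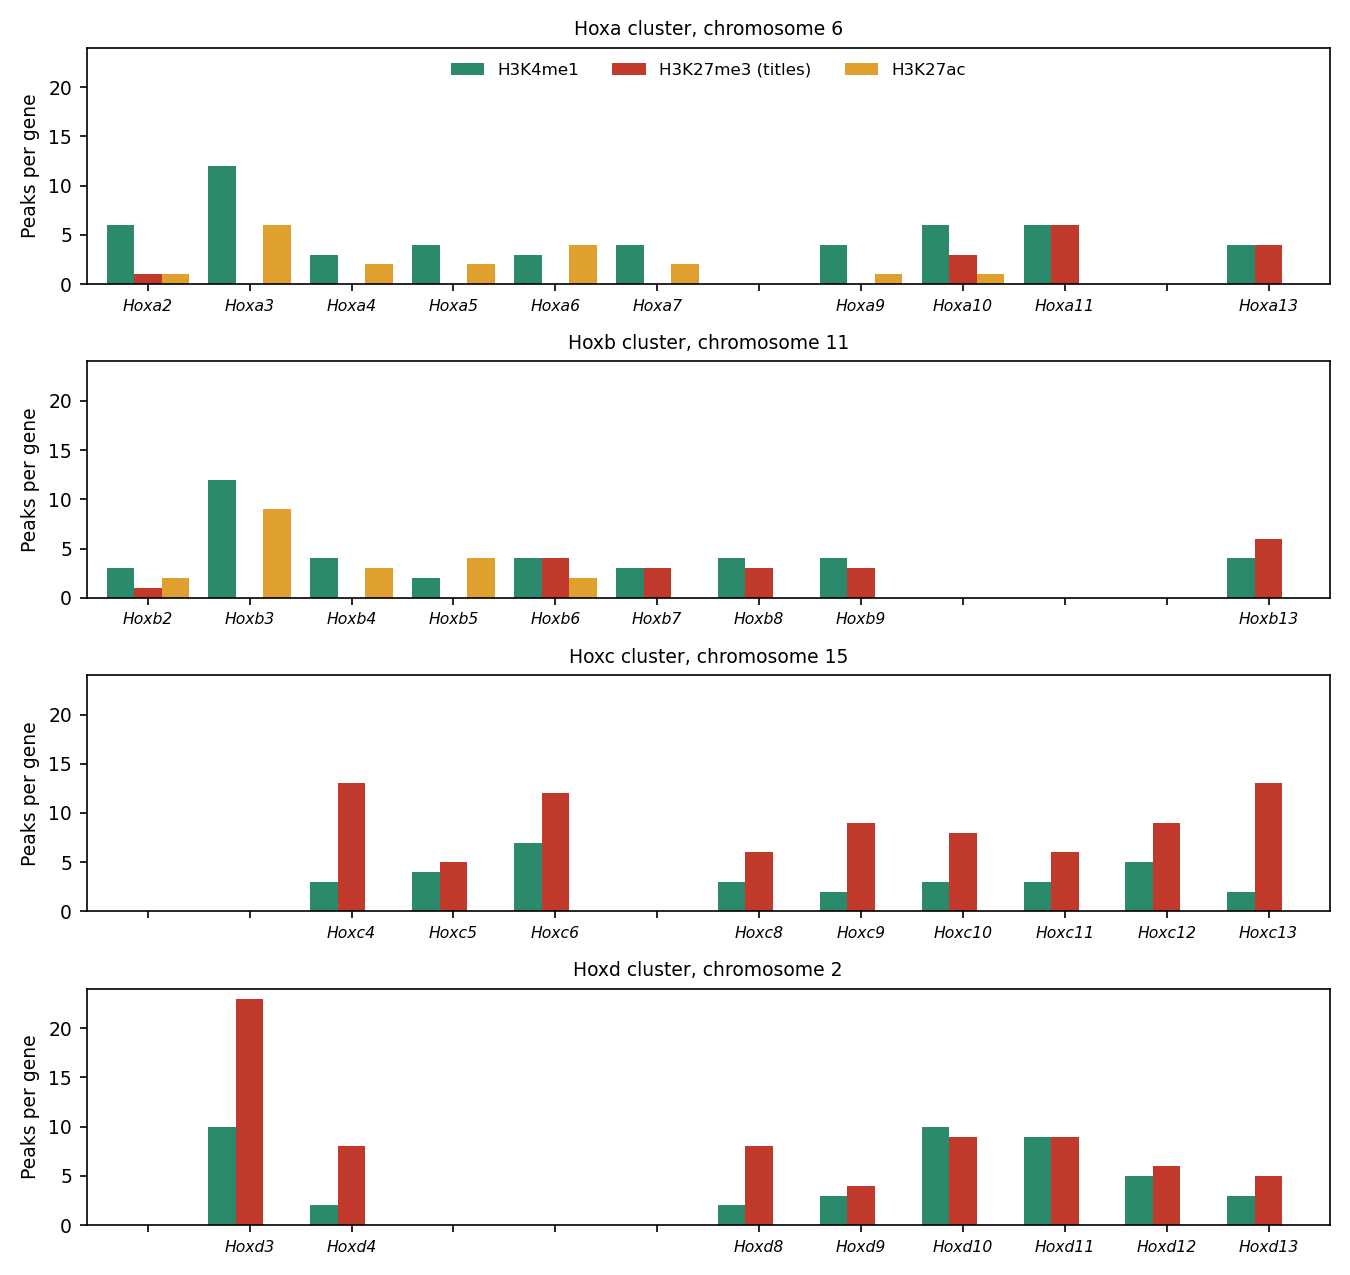
Called peaks of H3K4me1, H3K27me3 (titles) and H3K27ac in adult HPC at the autosomal Hox genes of paralog groups 2 to 13 (y axis, peaks per gene window), 1 panel per cluster with genes in paralog order along the x axis. Hoxa3 to Hoxa9 and Hoxb3 to Hoxb5 have no H3K27me3 peak, and no Hoxc or Hoxd gene has an H3K27ac peak.

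Signalling molecules of the embryo were divided by family. Of 19 Wnt ligands, 14 had both marks and 5 had H3K4me1 alone. Wnt3a had 8 H3K4me1 and 12 H3K27me3 peaks, and Wnt5a had 2 and 10. Fgf ligands had both at 11 of 20, with Fgf9 at 4 and 12. H3K4me1 alone was the most frequent class among TGF-beta superfamily ligands (18 of 33, or 54.5%, with 13 carrying both). The same held for the Hedgehog and Notch pathway (11 of 21, or 52.4%) and for Eph receptors and ephrins (12 of 21, or 57.1%). These shares lay below the 63.7% of all genes with H3K4me1 alone, but each interval included that value. The intervals were 38.0% to 70.2%, 32.4% to 71.7% and 36.5% to 75.5%. Both marks were at 39.4%, 47.6% and 42.9% of the 3 families, above the 15.9% of all genes. Bmp5 (0 and 16) and Fgf20 (0 and 9) had H3K27me3 alone. Kitl, which encodes the niche ligand of Kit, had 3 and 8, and Cxcl12, the chemokine that retains stem cells in the marrow, had 3 and 8. Wnt receptors and inhibitors had both marks at 15 of 25, whereas 55 of 62 cytokine and growth factor receptors of blood cells had H3K4me1 alone.

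Ion channel and neurotransmitter receptor genes formed the other large block with both marks. Of 193 channel and neurotransmitter receptor genes in 4 lists, 49 (25.4%) had H3K4me1 alone, 116 (60.1%) both, 18 (9.33%) H3K27me3 alone and 10 (5.18%) neither. Over all autosomal genes 15.9% had both and 4.39% H3K27me3 alone. With only peaks of −log10 q of 3 or more, most of these calls were lost, as over all genes (872 with both in place of 3283). Both marks were then left at 13 of 79 potassium channels and 10 of 39 sodium and calcium channels. They were left at 9 of 43 glutamate and GABA receptors and 8 of 32 adrenergic, dopamine, serotonin and muscarinic receptors. Many of these genes are long, with median windows of 120.5 kb for sodium and calcium channels and 193.0 kb for glutamate and GABA receptors. Of all genes with windows of 67.9 kb and above, 31.2% had both marks. Cacna1e, a voltage-gated calcium channel, had 19 H3K4me1 and 109 H3K27me3 peaks. Grin2b, an NMDA receptor subunit, had 6 and 93, and Kcnq3, a brain potassium channel, had 7 and 61. Dopamine receptor Drd2 had 0 and 14 and serotonin receptor Htr1a 0 and 6.

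Collagens resembled this block, with 10 of 42 carrying H3K4me1 alone, 24 both, 6 H3K27me3 alone and 2 neither. Col24a1 had 7 H3K4me1 and 86 H3K27me3 peaks, and Col6a3 had 0 and 30. Among all genes with both marks, those with the most peaks of the rarer mark were Alk, a receptor tyrosine kinase of the nervous system (43 and 57), Tenm4, a teneurin (42 and 52), Dscam, a neuronal adhesion molecule (38 and 54), and Asic2, an acid-sensing channel (36 and 200). Asic2 held the most H3K27me3 peaks of any gene with both marks.

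H3K27me3 without H3K4me1 was the most frequent class among keratins. Of 49 keratins, 6 had H3K4me1 alone, 13 both, 28 H3K27me3 alone and 2 neither, against 4.39% of all genes with H3K27me3 alone. Most of these calls were weak, as over all genes. With only peaks of −log10 q of 3 or more, H3K27me3 alone was left at 4 of the 49, and at 9 of 56 keratin-associated proteins in place of 24. Over all 20665 genes it was left at 129 in place of 907. With the strongest 20000 peaks of each mark it was at 29 of the 49 and 23 of the 56, beside 2098 of all genes. Keratins of chromosome 11, where the type I genes lie, had it at 21 of 25, and those of chromosome 15, with the type II genes, at 7 of 24. Krt23 had 12 H3K27me3 peaks, Krt73 9, Krt2 9 and Krt20 8, none with H3K4me1. Krt8 and Krt18, the partner keratins of simple epithelia, and Krt7 were exceptions with 5, 3 and 4 H3K4me1 peaks and no H3K27me3.

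The keratin-associated proteins, which build the hair shaft, differed by chromosome. On chromosome 11, 22 of 23 had H3K27me3 alone. On chromosome 16, 24 of 24 had neither mark. Of all H3K27me3-only genes, 53.7% lay in runs of 2 or more neighbours. This was the lowest share of the classes, beside 95.4% with H3K4me1 alone, 59.4% with both and 82.5% with neither. Windows of 386 of the 907 H3K27me3-only genes (42.6%) overlapped another gene's window, so genes of a run are not independent cases. The longest run, picked with those below after the values were seen, held 27 consecutive genes over 0.383 Mb from Krt12 into the Krtap genes. Nearby runs of 18 genes (Krtap29-1 to Krt42) and 11 genes followed on the same chromosome, and 10 genes from Krt90 to Krt2 on chromosome 15. In fetal HPC, H3K27me3 was also called at 20 of the 25 chromosome 11 keratins and 22 of the 23 chromosome 11 keratin-associated genes.

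Olfactory receptors mostly had no peak. Of 1104, 60 had H3K4me1 alone, 13 both, 151 H3K27me3 alone and 880 neither, against 16.0% of all genes with neither. Most of the calls at the 151 were weak. With only peaks of −log10 q of 3 or more, H3K27me3 alone was left at 12 of the 1104, beside 129 of all 20665 genes. With the strongest 20000 peaks of each mark it was at 89 of the 1104, beside 2098 of all genes. The 151 were spread unevenly, with 3 of 287 on chromosome 2 and 39 of 83 on chromosome 11. Runs of 9 neighbours on chromosome 11 (Olfr1389 to Olfr1381, and Olfr30 to Olfr324) and of 11 on chromosome 4 (Olfr1340 to Lao1) carried H3K27me3 alone. Olfr1329 and Olfr1387 had 9 peaks each, with a highest −log10 q of 2.54 and 2.16. The longest run of genes with neither mark, 183, also lay among olfactory receptors, on chromosome 2.

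Vomeronasal and taste receptors had neither mark at 354 of 390 and defensins at 59 of 71. By symbol stem, all 29 Defa and 15 Esp genes, 25 of 26 Prl genes (placental prolactins), 23 of 24 Mup genes (major urinary proteins) and 20 of 21 Lce genes (late cornified envelope) had neither. These are tandem families, most with short windows. Cytochrome P450 genes were split over all classes, with 31 of 92 carrying H3K4me1 alone, 10 both, 12 H3K27me3 alone and 39 neither. Cyp3a13 had 0 H3K4me1 and 20 H3K27me3 peaks.

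H3K4me1 alone was the state of genes that every cell uses and of blood regulators. Of 444 ribosome, respiration, proteasome, transcription, cell cycle and housekeeping genes in 7 lists, 411 (92.6%) had H3K4me1 alone, 27 (6.08%) both, 1 H3K27me3 alone and 5 neither, beside 63.7% of all genes with H3K4me1 alone. Housekeeping genes reached 37 of 37. Of 66 replication-dependent histone genes, 63 had H3K4me1 alone, and the other 3 (H2ac23, H2bc23 and H4c17) had neither mark although each had 2 H3K27ac peaks. The enzymes behind the marks belonged here too, with 17 of 17 H3K4 methyltransferases and demethylases and 26 of 30 Polycomb genes. Jarid2, a PRC2 cofactor, had 52 H3K4me1 peaks. Bmi1, a PRC1 component needed for stem cell self-renewal, had 6 H3K4me1 and 2 H3K27me3 peaks.

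Among regulators of stem cells and progenitors, 30 of 31 had H3K4me1 alone, and several had many peaks. Msi2, an RNA-binding protein of stem cells, had 119 peaks, Angpt1 91, Mecom 89 and Runx1 61. Erg, an Ets factor of stem cells, was the exception with 23 H3K4me1 and 4 H3K27me3 peaks. Irf and Stat genes had H3K4me1 alone at 16 of 16, with Irf8, which directs monocyte and dendritic cell fate, at 14 peaks. Over all genes the most H3K4me1 peaks without H3K27me3 were counted at Foxp1 (143), Msi2 (119), Pde4d (119) and Foxn3 (104).

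Lineage genes of later blood cells are given beside the 63.7% of all genes with H3K4me1 alone, and several lists lay near that share. Of 26 myeloid genes, 22 had H3K4me1 alone, led by Spi1 (PU.1) with 15 peaks and Itgam with 11. S100a9, a calcium-binding protein abundant in neutrophils, had 0 H3K4me1 and 3 H3K27me3 peaks, and its neighbour S100a8 and the granule gene Camp had neither mark. Of 23 lymphoid priming genes, 14 (60.9%) had H3K4me1 alone and 9 both. Ikzf1 (30 and 0) and Ikzf3 (8 and 15), the Ikaros family members of early and later lymphocytes, fell on different sides. Of 20 T and NK cell markers, 9 had H3K4me1 alone, 7 both, 2 H3K27me3 alone and 2 neither, with Cd3e at 0 and 1, and Cd8a at 0 and 0. Of 24 erythroid and megakaryocyte genes, 18 had H3K4me1 alone, and Ank1, of the red cell membrane skeleton, had 15 and 8.

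Genes of the fetal stem cell programme had both marks at 8 of 12 in these adult cells, beside 15.9% of all genes. With only peaks of −log10 q of 3 or more they had both at 2 of 12, beside 872 of all 20665 genes. Fetal HPC had H3K27me3 at 6 of the 12, beside 26.8% of all genes. Lin28b, an RNA-binding protein that maintains fetal blood formation, had 4 H3K4me1 and 17 H3K27me3 peaks in adult HPC. Igf2bp2 had 15 and 5 and Igf2bp3 had 11 and 3. In fetal HPC, H3K27me3 was called at Lin28b with 4 peaks and at Igf2bp2 and Igf2bp3 with 0. The adult and fetal H3K27me3 lists hold nearly as many peaks, 54293 and 54339, but the fetal list is stronger. A −log10 q of 3 or more was reached by 2767 adult and 17421 fetal peaks. The peak numbers of these genes at the 2 ages therefore stand side by side only.

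**Figure D3:**
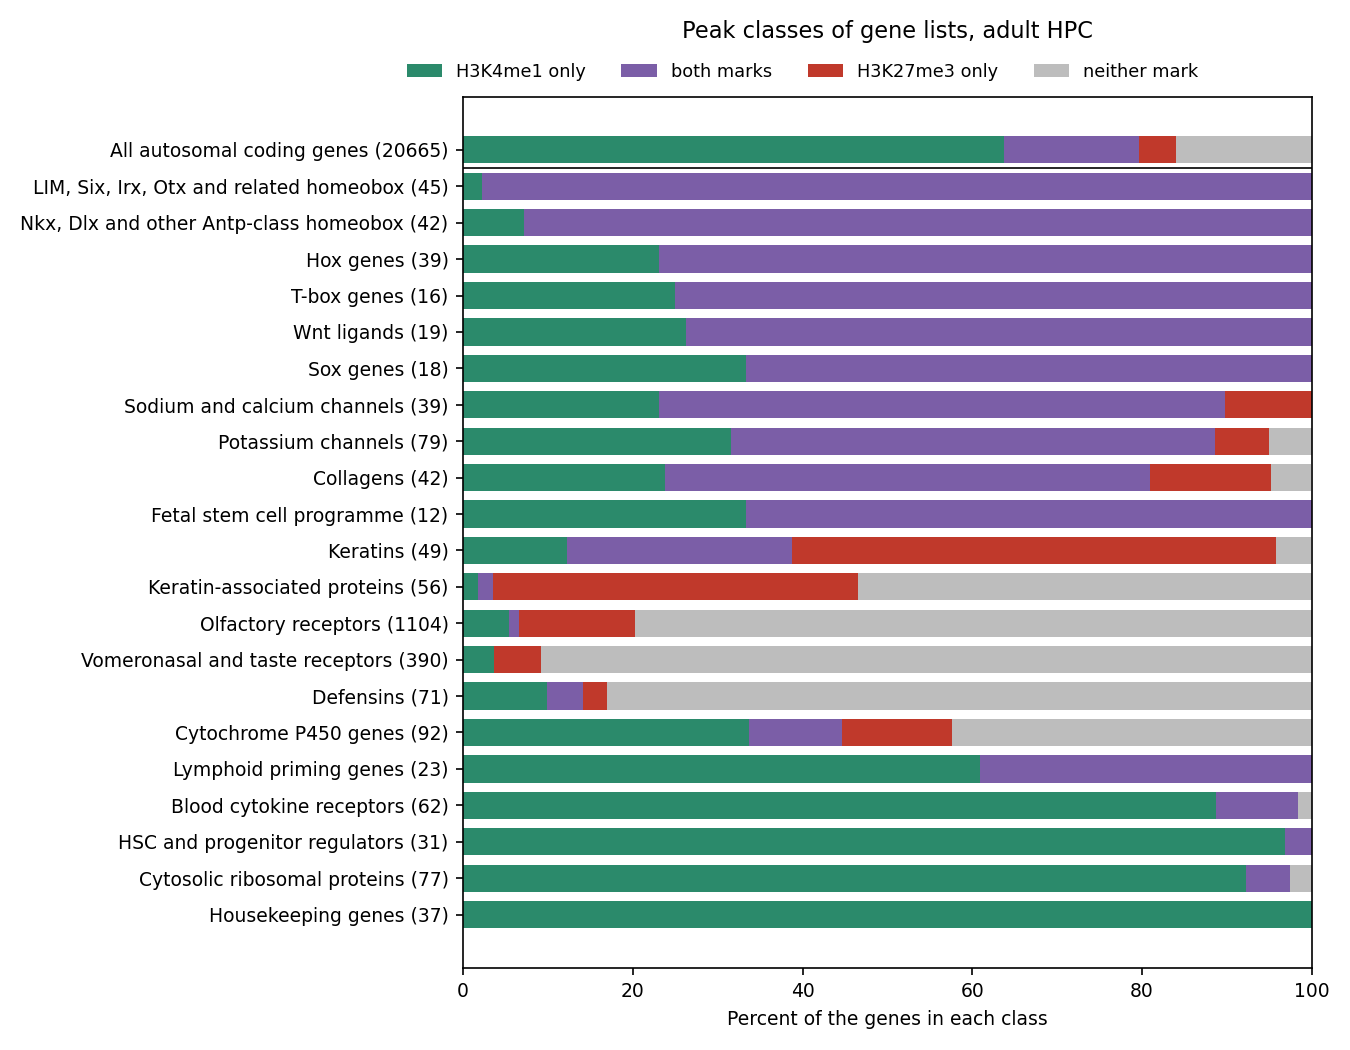
Share of the genes of 21 lists in each peak class (stacked, %), with the number of genes in parentheses and all 20665 autosomal coding genes at the top. Both marks are at 44 of 45 genes of the LIM and related list, 39 of 42 of the Nkx and Dlx list and 30 of 39 Hox genes, keratins hold the highest share of H3K27me3 alone, receptors of smell and taste have mostly neither mark, and housekeeping genes have H3K4me1 alone.

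At genes with both marks, the marks overlapped or lay within 1 kb of each other at most genes. Peaks of the 2 marks overlapped at 1133 of 3283 such genes (34.5%). Without overlap, the smallest gap was under 1 kb at 1007 genes, from 1 kb to under 10 kb at 822 and 10 kb or more at 321. The marks alternated along the gene in 3 or more blocks at 2250 genes (68.5%). H3K27me3 lay only outside the gene body at 836 (25.5%) and H3K4me1 only outside at 171 (5.21%). Over the genome, 1929 of 54293 H3K27me3 peaks (3.55%) overlapped an H3K4me1 peak.

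Around the gene start the marks took different places. A start and strand were given for 2465 of the 3283 genes with both marks, and the rest do not enter the values by start here or below. At these 2465, the nearest H3K4me1 peak lay a median of 118 bp from the start and the nearest H3K27me3 peak 1668 bp. H3K4me1 was the nearer mark at 1984 of them (80.5%) and H3K27me3 at 466 (18.9%). H3K27me3 was lowest right at the start. In the 500 bp after it 5.35% of genes had an H3K27me3 peak, against 27.1% in the bin from 2000 to 2500 bp and 28.2% from 1500 to 1000 bp upstream. Genes with H3K27me3 alone had the same dip, with 5.46% in the first 500 bp and 22.0% from 2000 bp on.

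The H3K4me1 profile differed between the classes that hold the mark. Where it stood alone the start was a trough, with 43.6% of 10575 genes in the first 500 bp, 67.5% from 1000 to 500 bp upstream and 74.6% from 1000 to 1500 bp downstream. Where H3K27me3 was also present there was no trough, with 57.7% in the 500 bp before the start, 61.2% in the first 500 bp and 67.6% in the next. Farther out H3K4me1 was less frequent at genes with both marks, at 43.1% from 1500 to 2000 bp downstream, against 69.4% at genes with H3K4me1 alone. The rule used presence of a peak in the window, not its place.

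**Figure D4:**
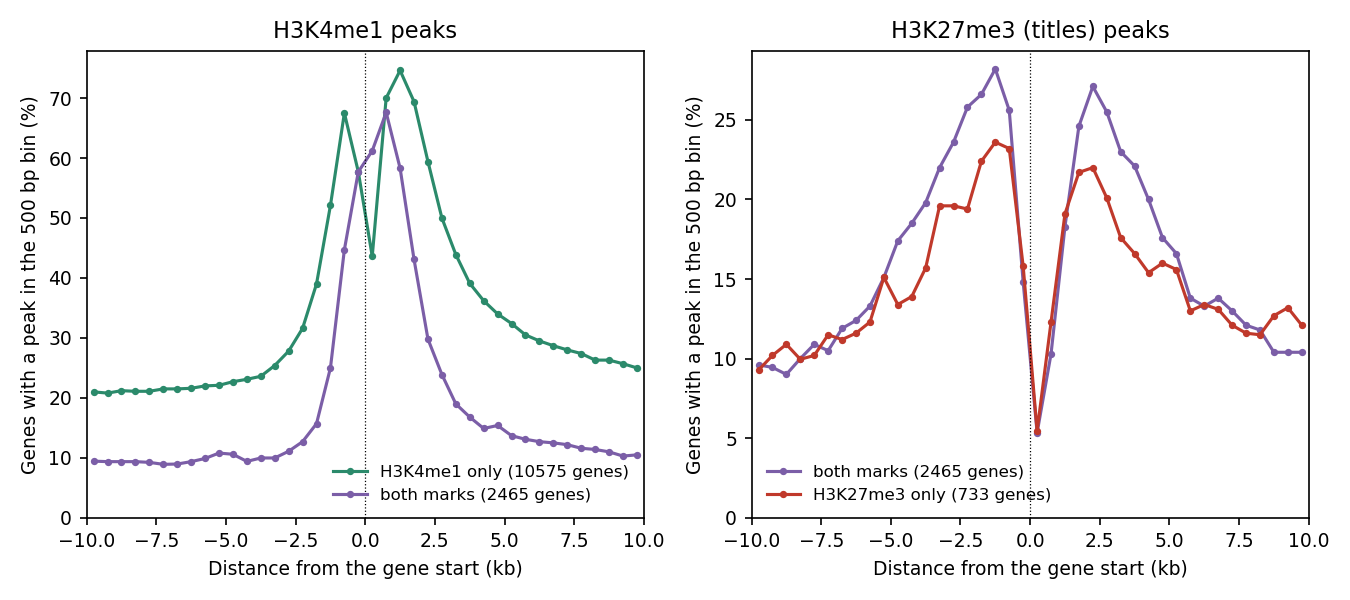
Share of genes with a peak in each 500 bp bin (y axis, %) by distance from the gene start (x axis, kb, negative upstream), for H3K4me1 at left and H3K27me3 at right, 1 line per class that holds the mark. H3K4me1 dips to 43.6% just after the start where it stands alone and is 61.2% there where both marks are present, and H3K27me3 drops to 5.35% and 5.46% there in its 2 classes.

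H3K27ac in the same cells, from separate libraries, differed between the classes. Of the 63108 H3K27ac peaks, 54832 (86.9%) overlapped an H3K4me1 peak. Low shares in the classes defined without H3K4me1 were therefore set in part by the rule. H3K27ac was called at 92.7% of genes with H3K4me1 alone (92.2% to 93.1%) and 55.7% with both marks (53.9% to 57.3%). It was called at 1.87% with H3K27me3 alone (1.17% to 2.98%), 2.78% with neither (2.27% to 3.39%) and 68.4% of all genes. Within 1 kb of the start the shares were 78.5%, 25.2%, 0.546% and 1.23%. The gap between genes with H3K4me1 alone and both marks was also present within groups of window length. In the shortest of 5 groups 83.1% of genes with H3K4me1 alone and 31.3% of those with both marks had H3K27ac, and in the longest group 97.7% and 67.2%.

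Among genes with both marks, H3K27ac was more frequent where H3K4me1 peaks outnumbered H3K27me3 peaks. It was called at 1254 of 1542 genes with more H3K4me1 than H3K27me3 peaks (81.3%, 79.3% to 83.2%). At genes with more H3K27me3 it was called at 436 of 1391 (31.3%, 29.0% to 33.8%). Their median windows were 49.4 kb and 53.6 kb. Of the H3K27ac peaks, 86.9% overlapped an H3K4me1 peak and 0.0269% an H3K27me3 peak. This difference is therefore not independent of the peak numbers that made the split, and its cause was not tested. Homeobox lists were at the low end, with H3K27ac at 9 of 45 LIM and related homeobox genes and 6 of 42 Nkx and Dlx-type genes. The 99 genes of 6 blood regulator lists had it at 91.

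The classes were largely kept in the separate fetal and stem cell lists. H3K27me3 in fetal HPC was called at 11.1% of genes with H3K4me1 alone, 89.7% with both marks, 82.9% with H3K27me3 alone and 11.6% with neither, beside 26.8% of all genes. Adult HSC had H3K4me1 at 98.6%, 98.2%, 20.2% and 5.25% of the same classes, beside 80.1% of all genes. Fetal HPC had H3K4me1 at 97.8%, 90.4%, 14.1% and 6.37%, beside 78.3% of all genes, and fetal HSC at 97.5%, 92.6%, 22.8% and 8.51%, beside 79.2%. With both fetal HPC lists in place of the adult ones, 87.2% of genes with H3K4me1 alone, 81.2% with both, 71.0% with H3K27me3 alone and 83.6% with neither fell in the same class. Of the 3283 genes with both marks in adults, 300 had H3K4me1 alone in fetal HPC, among them Foxo1 and Igf2bp2, and 277 had H3K27me3 alone.

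**Figure D5:**
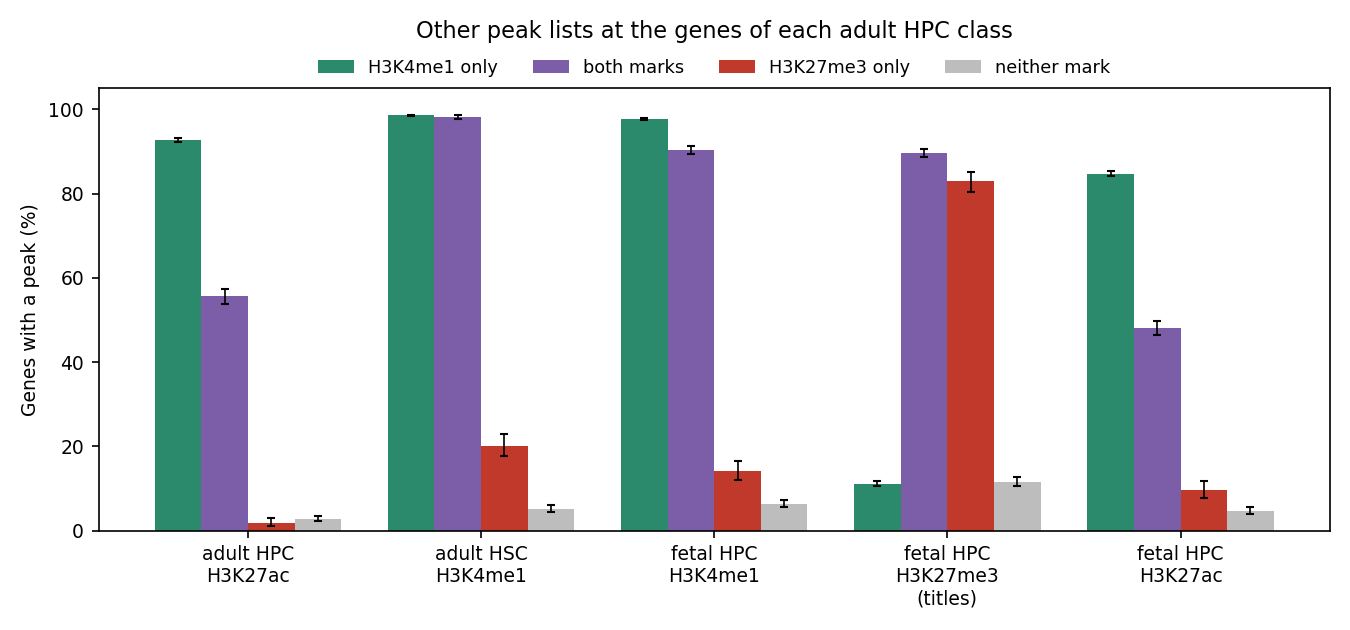
Share of the genes of each adult HPC class (y axis, %) with a peak in 5 peak lists the classes did not use, with 95% Wilson intervals for counting error. H3K27ac in adult HPC is at 92.7% of genes with H3K4me1 alone and 1.87% with H3K27me3 alone, and fetal H3K27me3 is at 89.7% with both marks and 82.9% with H3K27me3 alone.

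Promoter composition, which the classes did not use, also differed. A promoter was called CpG-rich at an observed over expected CpG ratio of at least 0.6 and GC of at least 50% over 300 bases. This held for 59.9% of genes with H3K4me1 alone (59.0% to 60.9%), 9.69% with H3K27me3 alone (71 of 733) and 2.46% with neither (1.94% to 3.12%), against 47.3% of all genes with a promoter. For genes with both marks the check is void, because a promoter was given for 77.9% of those off chromosome 18, under the 80% required. Olfactory receptors had 0 CpG-rich promoters of 938 and keratin-associated proteins 0 of 51.

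The 71 CpG-rich promoters among H3K27me3-only genes, Slc6a11 included, stood out from the other 662. Adult HSC had H3K4me1 at 43 of the 71 genes (60.6%) and at 95 of the 662 (14.4%), beside 80.1% of all genes, and fetal HPC had H3K27me3 at 68 (95.8%) and 541 (81.7%). Those with the most H3K27me3 peaks, picked after their values were seen, were Slc6a11 (41), Glp2r (31), Prmt8 (23) and Spock1 (23). Adult HSC had 0, 2, 1 and 2 H3K4me1 peaks at these genes. Farther down, Pcsk2 (17), an endocrine prohormone convertase, and Drd2 (14) had 0 in adult HSC.

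The strength of the calls bears on every class. With only peaks of −log10 q of 3 or more, both marks were left at 872 genes (4.22%) and H3K27me3 alone at 129 (0.624%). Both marks were then left at 23 of 39 Hox genes, 22 of 42 Nkx and Dlx-type genes, 29 of 45 LIM and related homeobox genes and 7 of 9 Pax genes. Other families lost most of their calls, with both marks at 2 of 18 Sox genes, 12 of 53 tissue bHLH genes, 2 of 19 Wnt ligands, 2 of 20 Fgf ligands and 3 of 42 collagens. With the strongest 20000 peaks of each mark by −log10 p, 7 of 39 Hox genes and 12 of 45 LIM and related homeobox genes had both, and 21 and 32 had H3K27me3 alone. Their place in the class with both marks therefore depended on H3K4me1 peaks below the strongest 20000, while 28 of the 39 and 44 of the 45 still had H3K27me3. Windows also overlapped, as 63.7% of genes shared sequence with another gene's window, and 50.7% of autosomal H3K27me3 peaks, against 72.3% of H3K4me1 peaks, touched any gene window.

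The strongest single H3K27me3 peak needs care. It had a fold of 8.97, lay at chr1:171069557-171069962 in the window of Fcgr3, an Fc receptor of myeloid cells, and overlapped an H3K4me1 peak with a fold of 3.28. Fcgr3 had 10 H3K4me1 peaks and this 1 H3K27me3 peak, and H3K27ac at 0. The Fc receptor genes there are close copies of each other, and how the authors placed reads that match several copies is not stated in the labels. Other genes with high H3K27me3 folds were Cdh22 (7.82) and Cdh4 (7.05), both cadherins with 27 and 28 H3K27me3 peaks.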

How the data were processed

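Peak lists of 8 ChIPmentation groups were used, of which 2 (adult HPC, H3K4me1 and H3K27me3 by title) define the classes. Alignment used Novoalign and peak calling used MACS2 with mm10 (GRCm38), per the submitters' processing notes. Their versions, the filter, the threshold and the use of the inputs were not given in the sources used here. From the authors came 1 deposited, pooled list per group, so replicates could not be compared, and the read depth is unknown. Each list gives the authors' score, fold (ratio over background), −log10 p, −log10 q and summit per peak. These are the authors' own values and served to describe peaks and to rank or filter them inside 1 list.

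Gene positions came from RefSeq (GRCm38.p6). A gene had a mark if at least 1 bp of a peak lay within the gene body plus 5 kb. Strand and gene start came from the RefSeq promoter table, for 79.6% of genes. Counting was tested on simulated data with 1600 planted genes, and matched bedtools 2.31.1 for every gene in 8 lists. Python 3.11.15, NumPy 2.4.6, pandas 2.3.3 and SciPy 1.17.1 were used. Named genes were, per class, the 8 with the most peaks and the 4 with the highest fold. Per list, they were up to 4 with the most peaks in its most frequent class and up to 4 in any class holding at most 20% of it. The 5 symbol stems highest in each class were also named. The 73 lists matched 358 of the 375 names given by symbol. Some genes are not reported here by name. Members, lists and tests were chosen with earlier results of these data known. The alternatives were other windows, the strongest peaks of each list by −log10 p, −log10 q, overlap rules and peak numbers.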

Additional observations from a re-analysis of the deposited data

How the results depend on the processing

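No paired analysis was possible because each group is 1 list pooled by the authors, and for the same reason no library could be left out. The 4 class counts were recomputed under 13 alternatives. With the gene body with no flank or plus 10 kb, the summit rule, 100 bp of overlap, peaks of 300 bp or wider, or chromosome X added, each count stayed within 1.5 times its value. With 5 kb either side of the gene start, 1729 genes had both marks. With the strongest 50000 peaks, H3K27me3 stood alone at 1655 genes. With the strongest 20000, the counts were 7986 with H3K4me1 alone, 794 with both, 2098 with H3K27me3 alone and 9787 with neither. A −log10 q of 3 or more left 872 with both and 129 with H3K27me3 alone. With at least 2 peaks 1981 had both, and with peaks within 1 kb merged and at least 2 of them 1470 had both and 6421 neither. Without genes that share windows, 7510 genes remained, 3415 with H3K4me1 alone, 1425 both, 521 H3K27me3 alone and 2149 neither.

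The share with H3K27ac was 90.8 percentage points higher at genes with H3K4me1 alone than with H3K27me3 alone. This difference is not independent of the rule, since most H3K27ac peaks overlapped an H3K4me1 peak. It was 88.5 with no flank, 83.1 and 69.5 with the strongest 50000 and 20000 peaks, 87.6 with −log10 q of 3 or more, 88.3 with at least 2 peaks and 88.0 without shared windows. The CpG-rich share differed by 50.2 points, 39.3 with the strongest 50000, 42.2 with at least 2 peaks, 45.2 without shared windows and 35.9 with a stricter CpG rule. It was void with the strongest 20000 and with −log10 q of 3 or more, where fewer than 80% of the genes with H3K27me3 alone had a promoter. Neither difference changed sign under the alternatives that gave a value. The causes were not tested, beyond fewer peaks or genes where an alternative removes them. The share of a list in its most frequent class moved past its interval in 0 of 73 lists with the summit or 100 bp rule and in 55 with the strongest 20000 peaks.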

Other observations

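Chromosome X stood apart from the autosomes. In adult HPC, 181 of 966 X-linked coding genes (18.7%) had H3K4me1 alone, 239 (24.7%) both marks, 202 (20.9%) H3K27me3 alone and 344 (35.6%) neither. H3K27me3 was thus called at 45.7% of X-linked genes, against 20.3% of autosomal genes, and in fetal HPC at 14.0% of the same X-linked genes. Of all peaks of the adult H3K27me3 list, 12.4% lay on X, against 1.37% of the fetal one. The sex of the animals did not enter here, so sex and age cannot be told apart in this contrast, and its cause was not tested. The H3K4me1 lists of adult and fetal HPC had 1.57% and 1.52% there. H3K27ac was called at 163 of the 239 X-linked genes with both marks (68.2%), beside 55.7% of autosomal genes with both.

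Of 1136 autosomal miRNA genes, taken with the same 5 kb on either side, 560 (49.3%) had H3K4me1 alone, 72 (6.34%) both marks, 34 (2.99%) H3K27me3 alone and 470 (41.4%) neither. The miRNA genes below were picked after their values were seen. All 3 genes of the neural miRNA miR-9 had both marks, Mir9-1 with 1 H3K4me1 and 6 H3K27me3 peaks, Mir9-2 with 2 and 7 and Mir9-3 with 5 and 6. Mir196a-1 and Mir196a-2, which lie in the Hoxb and Hoxc clusters, had 3 and 6, and 1 and 6. Mir137, a neuronal miRNA, had 1 and 5. None of these 6 genes had an H3K27ac peak in adult HPC.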
